A study of Homo sapiens with 24 samples.

Results

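The CDC2-like kinases CLK1, CLK2, CLK3 and CLK4 were examined as a gene family in labelled cytoplasmic RNA of U2OS cells, a human osteosarcoma line. The 4 genes were taken by symbol, and all 4 were present among the 25341 gene symbols of the deposited table, where 8 of its 48009 RefSeq transcripts belong to them. In the study, RNA made during a bromouridine pulse was followed through a chase of 0, 0.5, 1, 2, 4 and 6 h, and the labelled RNA was recovered with an antibody against bromouridine. A Tet-off double stable line carries a phosphomimetic TOB2, S254D, which is expressed when doxycycline is left out of the medium. The induced cells, grown without doxycycline, and the uninduced cells, grown with it, gave 2 libraries at each of the 6 times, 24 in all. The transgene and the drug therefore changed together between the arms, and their effects cannot be told apart. The uninduced cells carry the same transgene, held off by the drug. Both arms came from 1 engineered line, whose number of clones is not given in the sources used here. The labels do not say that replicates were separate cultures, so p-values measure only the spread between these libraries, which may be technical.

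CLK proteins are dual-specificity kinases of the nucleus that phosphorylate SR proteins, the arginine- and serine-rich splicing factors that help choose splice sites. Phosphorylation by CLKs releases SR proteins from nuclear speckles and so makes them available to the spliceosome, while SRPK kinases act on the same proteins in the cytoplasm. The family is also known to regulate its own messages: CLK1 pre-mRNA can be spliced to a form that encodes a truncated, inactive kinase, and partly spliced CLK1 RNA can be held in the nucleus until the kinases' activity drops. TOB2 belongs to the BTG/TOB family, which recruits the CCR4-NOT deadenylase to messages and so promotes shortening of their poly(A) tails.

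Values are TPM, transcript levels that are scaled for transcript length and for the total of each library, summed over the transcripts of a gene. TPM keep no read depth, so the depth behind them is unknown, and a level is always a share of the labelled RNA remaining at that time. TOB2 itself lay between 499 and 725 TPM in the 12 induced libraries, against 92.3 to 267 TPM in the 12 uninduced ones, with no overlap. The line's markers were uneven: vimentin (VIM) averaged 580 TPM and the keratins KRT8 and KRT18 averaged 828 and 1584 TPM, while TWIST1 and EPCAM were listed at 0 in every library. The 5 leukocyte markers summed to 0.86 to 2.39 TPM in induced and 0.79 to 2.57 TPM in uninduced libraries. The 4 nuclear-retained RNAs checked (MALAT1, NEAT1, KCNQ1OT1 and MEG3) summed to 506 to 1098 TPM in induced libraries and 233 to 569 TPM in uninduced libraries, and at every time both induced libraries were above both uninduced ones. Their part in the CLK results was not tested.

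CLK3 and CLK1 were the abundant members and CLK2 and CLK4 the scarce ones. Across the 24 libraries, the ratio of CLK3 to CLK1 in TPM had a median of 1.52, and CLK3 was the higher in 20 libraries. The 4 exceptions were both induced libraries at 0 h, induced replicate 2 at 0.5 h and uninduced replicate 2 at 0 h. CLK1 exceeded CLK2 and CLK4 in all 24 libraries, with median ratios of 3.63 and 4.26. CLK2 exceeded CLK4 in 19 libraries at a median ratio of 1.17, so the order of these neighbours was not kept in 5 libraries.

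**Figure D1:**
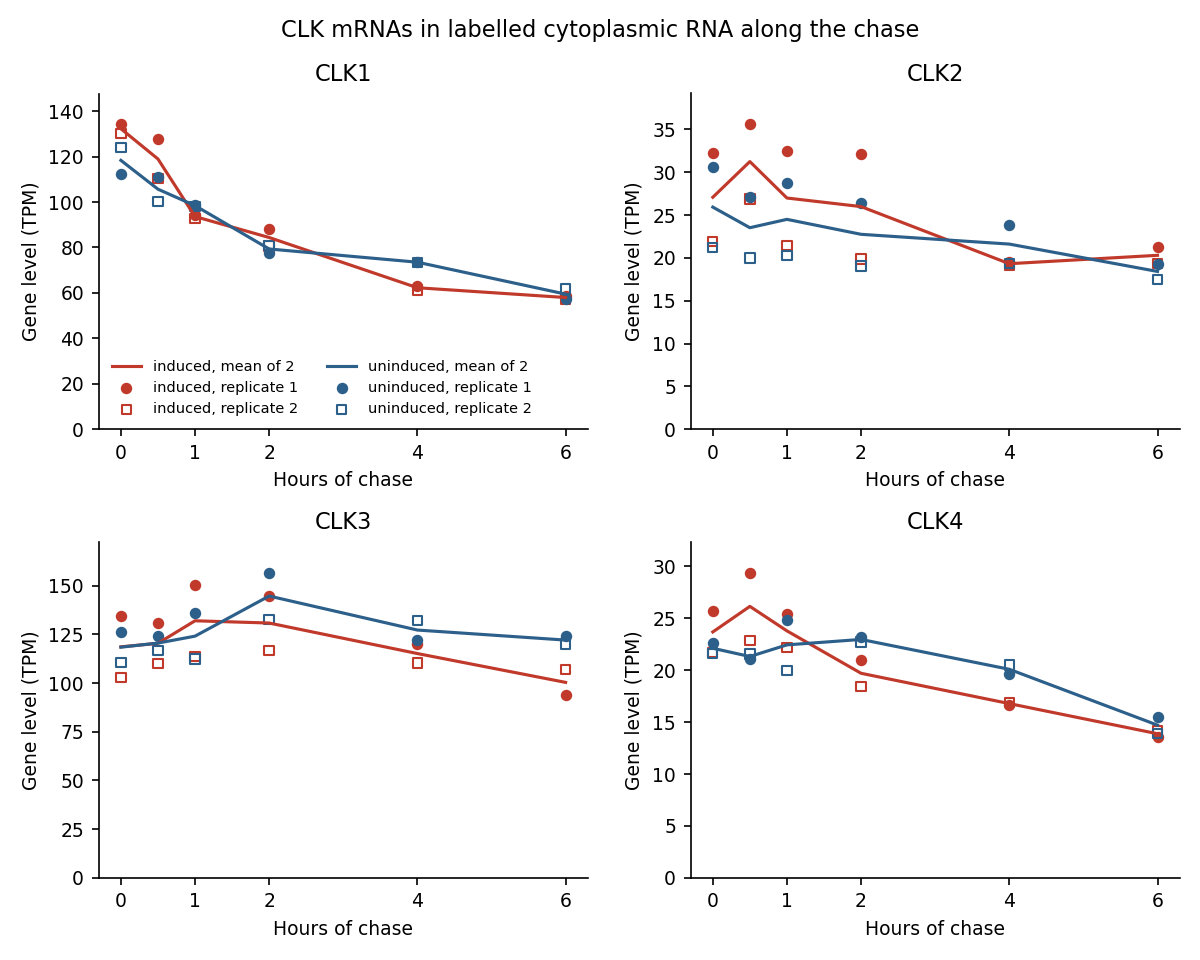
TPM of each CLK gene (vertical axis, linear from 0) against hours of chase (horizontal axis); points are single libraries, filled for replicate 1 and open for replicate 2, and lines join the means of 2 libraries in induced (red) and uninduced (blue) cells. CLK1 falls in both arms, to between 57.2 and 61.7 TPM at 6 h, whereas CLK3 stays between 93.9 and 157 TPM throughout.

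The start regions of 3 members are shown because, on TPM, CLK1 and CLK4 both fell during the chase in each arm while CLK3 did not pass the test in either. A link between these sequences and the course of the chase was not tested. Each window runs from 250 bases before to 50 bases after a transcription start in RefSeq's GRCh38.p14 annotation, 5′ to 3′ on the gene's own strand. The capitals mark matches, on either strand, to 6 short motifs: the GC box GGGCGG, the partial cAMP response element TGACG, the full element TGACGTCA, the CCAAT box, the ETS-type sequence CCGGAAG and the TATA box TATAAA. The quantification named hg19 as its genome, so no value below is tied to these coordinates, and the RefSeq table used does not say which transcript begins at which start.
CLK1, chr2:200864609-200864908, minus strand: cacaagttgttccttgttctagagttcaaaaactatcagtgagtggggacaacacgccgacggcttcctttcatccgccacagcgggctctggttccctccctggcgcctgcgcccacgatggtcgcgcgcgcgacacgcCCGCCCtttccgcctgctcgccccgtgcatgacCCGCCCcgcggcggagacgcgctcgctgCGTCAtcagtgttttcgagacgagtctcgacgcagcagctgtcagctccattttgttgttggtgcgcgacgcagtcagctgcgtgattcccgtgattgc
CLK4, chr5:178627001-178627300, minus strand: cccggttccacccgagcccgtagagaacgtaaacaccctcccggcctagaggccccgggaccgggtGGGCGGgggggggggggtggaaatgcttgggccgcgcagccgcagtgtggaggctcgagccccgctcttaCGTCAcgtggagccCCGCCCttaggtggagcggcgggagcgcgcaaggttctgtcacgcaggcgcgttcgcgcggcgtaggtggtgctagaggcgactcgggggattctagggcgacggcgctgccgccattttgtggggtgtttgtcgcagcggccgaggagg
CLK3, chr15:74615586-74615885, plus strand: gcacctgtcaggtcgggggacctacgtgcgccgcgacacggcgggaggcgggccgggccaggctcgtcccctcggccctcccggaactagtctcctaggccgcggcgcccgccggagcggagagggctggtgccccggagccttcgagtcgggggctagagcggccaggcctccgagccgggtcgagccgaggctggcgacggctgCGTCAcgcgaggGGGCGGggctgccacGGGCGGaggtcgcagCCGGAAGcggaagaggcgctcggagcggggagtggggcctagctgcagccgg
The 3 windows are rich in CpG, with 35, 36 and 41 CpG dinucleotides in CLK1, CLK4 and CLK3, against a median of 14 over 35116 RefSeq windows of the same length. All 3 hold TGACG on the reverse strand, a sequence present in 24.6% of all windows, and GGGCGG, the GC box, present in 45.0%. TGACG forms part of the full cAMP response element TGACGTCA, which none of the 3 contains and 1.85% of windows do. Only the CLK3 window of the 3 has CCGGAAG, an ETS-type sequence found in 10.3% of windows. CLK3 has another annotated start upstream, at chr15:74608122-74608421, whose window has 3 CpG and matches CCAAT at 2 places, a sequence found in 34.6% of windows. TATAAA, found in 11.5% of windows, is in none of the 6 windows of the 4 genes. A match is a description of letters in the window, not evidence of a bound factor.

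CLK1 fell furthest of the 4 members from 0 to 6 h. In induced cells its level in replicates 1 and 2 was 134 and 130.2 TPM at 0 h, 128 and 110.2 at 0.5 h, 94.4 and 92.9 at 1 h, 88.1 and 80.7 at 2 h, 63.3 and 61.3 at 4 h, and 58.7 and 57.3 at 6 h. In uninduced cells it was 113 and 124 TPM at 0 h, 111 and 100.3 at 0.5 h, 98.7 and 98.1 at 1 h, 77.8 and 80.9 at 2 h, 73.7 and 73.4 at 4 h, and 57.2 and 61.7 at 6 h. Both induced libraries lay above both uninduced ones at 0 h and below both at 1 h and 4 h, with the widest gap at 4 h. The arms overlapped at 0.5, 2 and 6 h. The level at 6 h was 0.437 to 0.440 of that at 0 h in the 2 induced series and 0.497 to 0.509 in the 2 uninduced series. A straight line on hours of chase, fitted with limma to log2(TPM + 1), had a slope of -0.19 ± 0.019 per hour in induced cells (SE, adjusted p = 3.05e-09, Benjamini-Hochberg over 13416 genes) and -0.15 ± 0.019 in uninduced cells (adjusted p = 2.16e-07).

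Slopes of TPM are relative to the rest of the library. Over the 13416 genes that averaged 1 TPM or more, the median slope was 0.028 per hour in induced and 0.039 in uninduced cells, so a typical gene rose slightly as a share. A slope below 0 passed the test for 3 of the 4 CLK genes in induced cells and 2 of 4 in uninduced cells. The same call was made for 29% of all genes in induced cells and 22.3% in uninduced cells, and for 70.7% and 65.1% in either direction, so a falling or rising share was common. The slope of CLK1 ranked at percentile 11.7 from the bottom in induced and 11.2 in uninduced cells, CLK4 at 19.1 and 21.4, CLK2 at 26.0 and 24.8, and CLK3 at 34.7 and 40.5. With median-of-ratios scaling in place of TPM the median of all genes moved by -0.145 over 6 h in induced cells and -0.224 in uninduced cells on the log2 scale. The share of called genes that rose was then 51.6% in both arms, against 58.9% in induced and 65.8% in uninduced cells on TPM. Without the noncoding RNA genes RMRP, MIR6723 and RPPH1 that share was 44.7% in induced and 51.8% in uninduced cells.

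**Figure D2:**
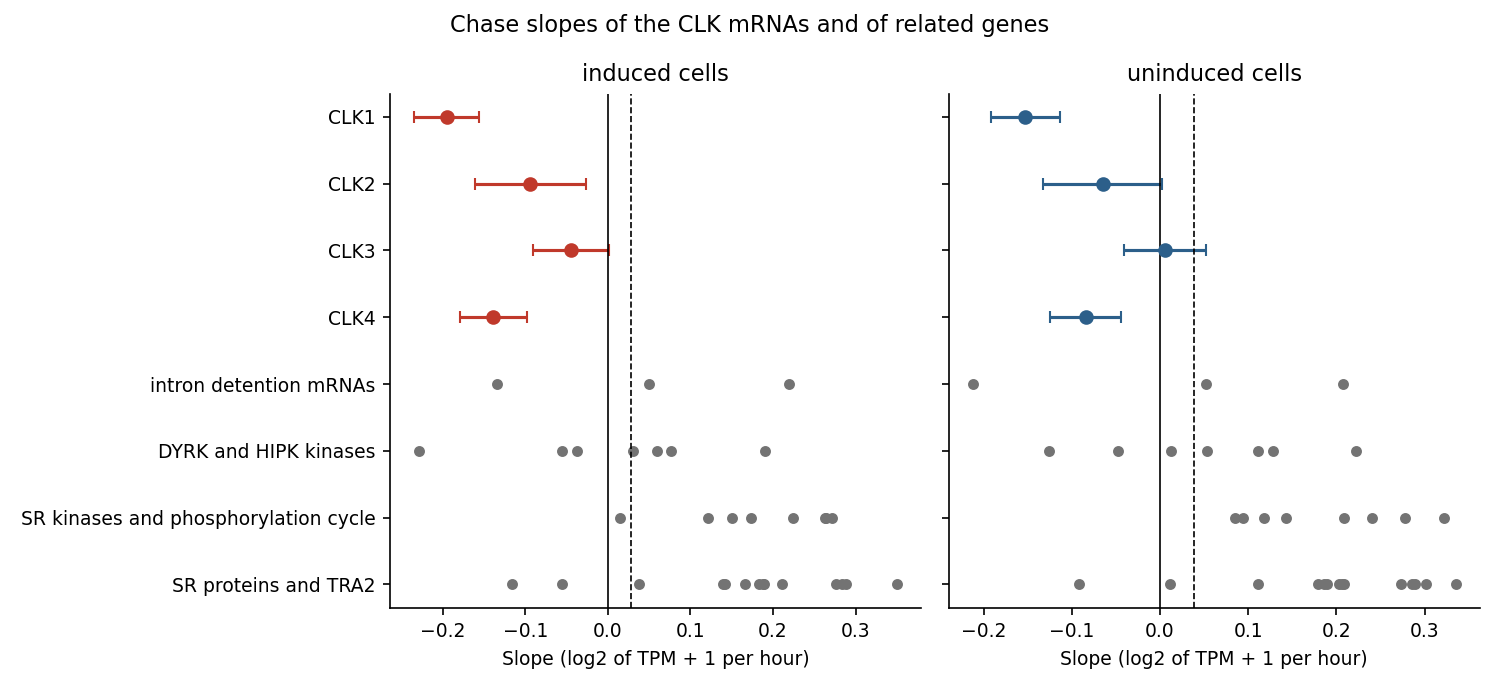
Slopes of log2(TPM + 1) per hour of chase (horizontal axis) in induced cells (left, red) and uninduced cells (right, blue) for each CLK gene, with 95% confidence intervals, and below them as grey points the single genes of 4 related lists; the solid line is 0 and the dashed line the median of all 13416 genes. Among the CLK genes CLK1 has the lowest slopes, -0.19 in induced and -0.15 in uninduced cells, and the intervals of CLK3 reach across 0 in both arms.

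CLK4, the close relative of CLK1 in sequence, also fell during the chase. In induced cells it was at 25.7 and 21.7 TPM at 0 h, 29.4 and 22.9 at 0.5 h, 25.4 and 22.2 at 1 h, 21.0 and 18.4 at 2 h, 16.6 and 16.9 at 4 h, and 13.5 and 14.2 at 6 h. In uninduced cells it was at 22.6 and 21.6 TPM at 0 h, 21.1 and 21.6 at 0.5 h, 24.9 and 20.0 at 1 h, 23.2 and 22.7 at 2 h, 19.7 and 20.5 at 4 h, and 15.5 and 13.9 at 6 h. The induced libraries were above the uninduced ones at 0.5 h and below them at 2 h and 4 h, and the arms overlapped at 0, 1 and 6 h. Its slope was -0.14 ± 0.020 per hour in induced cells (limma, Benjamini-Hochberg adjusted p = 1.18e-06) and -0.084 ± 0.020 in uninduced cells (adjusted p = 0.000645). The uninduced slope rested on the last time point: over 0 to 4 h alone it was -0.026 (adjusted p = 0.492, limma).

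CLK2 was lower at 6 h than at 0 h in each of the 4 series, at 0.631 to 0.884 of the starting level. In induced cells CLK2 was at 32.2 and 21.9 TPM at 0 h, 35.6 and 26.9 at 0.5 h, 32.5 and 21.5 at 1 h, 32.1 and 19.9 at 2 h, 19.5 and 19.1 at 4 h, and 21.2 and 19.4 at 6 h. In uninduced cells CLK2 was at 30.6 and 21.2 TPM at 0 h, 27.1 and 20.0 at 0.5 h, 28.7 and 20.3 at 1 h, 26.4 and 19.1 at 2 h, 23.9 and 19.3 at 4 h, and 19.3 and 17.5 at 6 h. Replicate 1 was the higher library in all 12 groups, and the libraries of a group often lay farther apart than the means of the arms. The slope was -0.094 ± 0.033 per hour in induced cells (limma, Benjamini-Hochberg adjusted p = 0.0132) and -0.065 ± 0.033 in uninduced cells (adjusted p = 0.0847), and the second passed the test under 3 other scalings, at -0.10 to -0.11 per hour.

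CLK3 did not pass the slope test in either arm. In induced cells it was at 134 and 103 TPM at 0 h, 131 and 110.1 at 0.5 h, 150.3 and 114 at 1 h, 145 and 117 at 2 h, 120.0 and 110.3 at 4 h, and 93.9 and 107 at 6 h. In uninduced cells it was at 126 and 111 TPM at 0 h, 124 and 117 at 0.5 h, 136 and 112 at 1 h, 157 and 133 at 2 h, 122 and 132 at 4 h, and 124 and 120.0 at 6 h. All 4 series stood higher at 2 h than at 0 h, by 1.08 to 1.24 times, and lower at 6 h than at 2 h, and 2 of the 4 ended above their start. These early increases did not pass the test. In induced cells they changed sign under 3 other scalings, to as low as -0.21 on the log2 scale, and in uninduced cells with quantile normalization, to -0.052. The slope was -0.044 ± 0.022 per hour in induced cells (95% interval -0.091 to 0.0019, limma, Benjamini-Hochberg adjusted p = 0.0805) and 0.0058 ± 0.022 in uninduced cells (-0.040 to 0.052, adjusted p = 0.834). Scaling decided the sign in uninduced cells, where the slope was -0.036 with median-of-ratios scaling (adjusted p = 0.0441), -0.073 with quantile normalization (adjusted p = 0.000373) and -0.033 without RMRP, MIR6723 and RPPH1 (adjusted p = 0.127), all by limma. The induced slope of CLK3 passed the test in all 3, at -0.071, -0.11 and -0.093.

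The changes were also taken in 2 intervals; whether timing differed between members was not tested. From 0 to 2 h CLK1 changed by -0.64 in induced and -0.57 in uninduced cells on the log2 scale (limma, Benjamini-Hochberg adjusted p = 8.80e-05 and 0.000286). No other CLK gene passed the test in that interval in either arm; of all genes, 4.65% fell by this test in induced cells and 3.76% in uninduced cells. The values for CLK4 were -0.25 in induced and 0.052 in uninduced cells in the same interval, but under 3 other scalings its induced change passed, at -0.40 to -0.49, and its uninduced change was below 0. From 2 to 6 h, CLK4 changed by -0.47 in induced cells and -0.61 in uninduced cells (adjusted p = 0.00776 and 0.00173, limma), and CLK1 by -0.53 and -0.41 (adjusted p = 0.000154 and 0.00189, limma). Those 2 of the 4 members fell in each arm, beside 24% of all genes in induced and 15.8% in uninduced cells. Counting coding transcripts alone, the late change of CLK1 was -0.27 in induced cells (adjusted p = 0.0406, limma) and -0.14 in uninduced cells, where the call was lost (adjusted p = 0.280). The late fall of CLK4 in induced cells missed the threshold when replicate 1 at 2 h was left out, at -0.38 (adjusted p = 0.0701, limma), or replicate 1 at 6 h, at -0.44. The values for CLK3 from 2 to 6 h were -0.37 in induced and -0.24 in uninduced cells (adjusted p = 0.0625 and 0.249, limma), and they passed in both arms under the same 3 scalings.

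Ratios between members within a library are free of the scaling of that library. The 4 libraries at 4 and 6 h were compared with the 4 at 0 and 0.5 h by two-sided exact permutation tests, 12 in all, whose smallest possible p is 0.0286. CLK1 lost ground to CLK3: the log2 ratio of CLK1 to CLK3 averaged -0.83 ± 0.11 late and 0.076 ± 0.17 early in induced cells (SD, n = 4 each, exact permutation adjusted p = 0.0490). In uninduced cells the same ratio averaged -0.90 ± 0.16 late and -0.094 ± 0.17 early (SD, n = 4 each, exact permutation adjusted p = 0.0490). CLK1 also lost ground to CLK4, by -0.38 in induced and -0.43 in uninduced cells on the log2 scale, and CLK3 gained on CLK4, by 0.52 in induced and 0.38 in uninduced cells (each exact permutation adjusted p = 0.0490). The ratio of CLK1 to CLK2 changed by -0.53 in induced cells (exact permutation adjusted p = 0.0490) and by -0.47 in uninduced cells, where it missed the threshold (adjusted p = 0.0762, exact). CLK2 against CLK4 differed by 0.15 in induced and 0.040 in uninduced cells, within the spread of the libraries (exact permutation adjusted p = 0.343 and 0.971). CLK2 against CLK3 stood at -0.37 late minus early in induced and -0.34 in uninduced cells and missed the threshold (exact permutation adjusted p = 0.0762 and 0.103). Every ratio call rested on the smallest possible p, so all the calls shared 1 adjusted p and depended on one another. Each was lost in 4 of 8 cases when 1 library of its own arm was left out. The exact permutation adjusted p then reached up to 0.0857 in induced cells and 0.103 in uninduced cells. Losses caused by libraries of the other arm were not counted, so these cases do not measure the stability of each ratio.

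**Figure D3:**
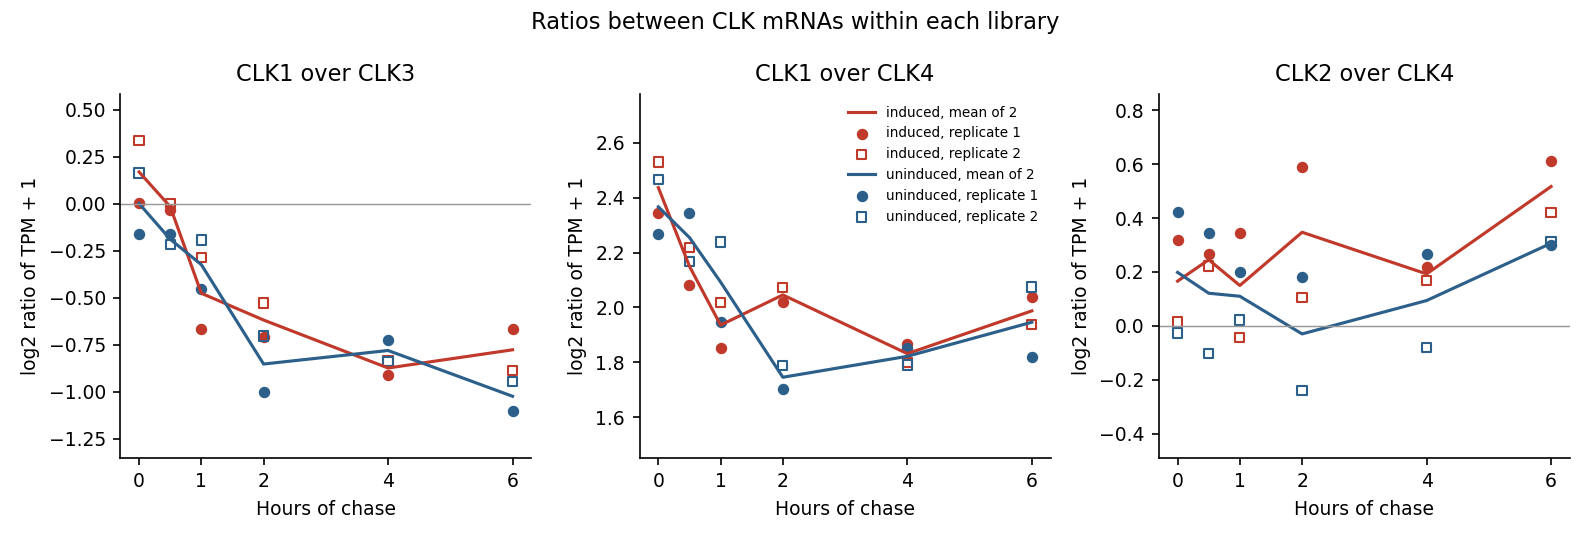
log2 ratios of TPM + 1 between CLK genes within each library (vertical axis) against hours of chase; points are libraries, filled for replicate 1 and open for replicate 2, and lines are means of 2 in induced (red) and uninduced (blue) cells. CLK1 over CLK3 averages -0.83 in induced and -0.90 in uninduced cells at 4 and 6 h, below 0.076 and -0.094 at 0 and 0.5 h.

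The study asked whether induction of TOB2 S254D changes the loss of messages, and for the CLK genes this is the difference between the slopes of the arms. The slopes were lower in induced than in uninduced cells for all 4 genes, but 0 of 4 differences passed the test by limma, and 0 of 4 had an unadjusted p below 0.05. Over all genes 46 of 13416, or 0.343%, passed. CLK4 differed by -0.054 per hour (95% interval -0.112 to 0.0035, limma adjusted p = 0.446) and CLK3 by -0.050 (-0.116 to 0.015, adjusted p = 0.550). CLK1 differed by -0.042 (-0.097 to 0.013, limma adjusted p = 0.553) and CLK2 by -0.029 (-0.124 to 0.066, adjusted p = 0.850). Across all alternatives the lowest adjusted p of any of them was 0.176, for CLK4 by limma. Over 0 to 4 h alone the differences were larger, -0.12 for CLK4 and -0.092 for CLK1, and did not pass (limma adjusted p = 0.552 and 0.637). The median difference over all genes was -0.0094 per hour, against -0.046 over the 4 members.

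Levels of the CLK genes in induced and uninduced cells were also compared directly. At 0 h the differences, induced minus uninduced on the log2 scale, were 0.16 for CLK1, 0.058 for CLK2, -0.0074 for CLK3 and 0.090 for CLK4, and 0 of 4 passed (limma, lowest Benjamini-Hochberg adjusted p = 0.820), whereas 0.0298% of all genes did; the signs for CLK2 and CLK3 changed under other scalings. Over 4 and 6 h together they were -0.14 for CLK1, -0.0064 for CLK2, -0.21 for CLK3 and -0.16 for CLK4, the CLK2 value changing sign with quantile normalization. None passed (limma adjusted p = 0.170 for CLK1, which had an unadjusted p of 0.0490), whereas 16.2% of all genes did. CLK3 was lower in both induced libraries than in both uninduced ones at 4 h and at 6 h. Over the 6 times the mean difference lay between -0.084 for CLK3 and 0.12 for CLK2 with 0 of 4 called by limma, where 25.7% of all genes were called; with median-of-ratios scaling that of CLK3 was -0.13 and passed (adjusted p = 0.0301, limma). The induced minus uninduced difference in change was called for 0 of 4 members from 0 to 2 h and from 2 to 6 h by limma, against 0% and 0.365% of all genes; for the first interval 195 genes had an unadjusted p below 0.05, none of them a CLK gene.

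CLK1 and CLK3 have several transcripts in the table, each of which was fitted by itself. These fits do not test whether transcripts of 1 gene differ in course. The authors' RSEM estimates divide reads among overlapping transcripts, so the split between isoforms of 1 gene is less certain than their sum. The main coding transcript of CLK1, NM_004071, stood at 40.8 and 41.5 TPM by 2 h in induced cells, whose starting levels were 83.6 and 104 TPM, and at 34.0 and 32.1 TPM by 2 h in uninduced cells, whose starting levels were 62.4 and 101 TPM. It fell by 1.16 in induced and 1.24 in uninduced cells on the log2 scale in those 2 h (limma over 21749 transcripts, adjusted p = 0.0308 and 0.0256), a call made for 1.96% and 1.61% of all transcripts. Its values from 2 to 6 h were -0.19 and 0.12, neither past the test, and its slopes over the whole chase, -0.16 in induced and -0.12 in uninduced cells, missed the threshold (limma adjusted p = 0.0535 and 0.155). The other coding transcript, NM_001162407, had slopes of -0.19 per hour in induced and -0.15 in uninduced cells (limma adjusted p = 0.00517 and 0.0307). Its changes in the shorter intervals did not pass, at -0.31 and 0.0096 from 0 to 2 h and -0.50 and -0.49 from 2 to 6 h.

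The CLK1 transcripts that RefSeq classes as noncoding were highest in mid-chase. NR_027856 was at 11.1 and 4.29 TPM at 0 h, 21.0 and 11.4 at 1 h, 17.9 and 8.91 at 2 h and 3.82 and 1.84 at 6 h in induced cells. In uninduced cells it was at 7.4 and 2.95 TPM at 0 h, 14.3 and 9.05 at 1 h, 12.0 and 7.45 at 2 h and 1.83 and 1.73 at 6 h. In each arm both libraries at 1 h lay above both at 0 h and both at 6 h. From 2 to 6 h NR_027856 fell, with a change of -1.89 in induced and -1.91 in uninduced cells on the log2 scale (limma adjusted p = 0.0189 and 0.0222), as did 11.9% and 7.58% of all transcripts, while its increase from 0 to 2 h, 0.77 and 0.86, did not pass. NR_027855 was listed at 0 in 5 libraries, all at 0 or 0.5 h. At 2 h it stood at 7.31 and 6.82 TPM in induced and 2.35 and 11.2 TPM in uninduced libraries. On log2(TPM + 1) its change from 0 to 2 h in uninduced cells was 2.68, which passed (limma adjusted p = 0.0344). In induced cells it was 2.34 and missed the threshold (limma adjusted p = 0.0555). Of all 21749 transcripts, 1835 rose by this test in uninduced cells. A value of 0 can be a failed estimate, so the call is uncertain and no fold of TPM is given.

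Together the 2 noncoding transcripts made up 6.38, 10.5, 22.0, 24.1, 9.78 and 8.57% of CLK1 at 0, 0.5, 1, 2, 4 and 6 h in induced cells, as means of 2 libraries. In uninduced cells the shares were 4.48, 8.99, 17.0, 20.8, 9.36 and 4.39%. In replicates 1 and 2 of induced cells they were 30.5 and 13.5% at 1 h and 28.6 and 19.5% at 2 h. In uninduced cells they were 20.3 and 13.8% at 1 h and 18.4 and 23.1% at 2 h. The grouping of these 2 transcripts was chosen after its values were seen and carries no test. In induced libraries the nuclear-retained RNAs summed to 680 and 516 TPM at 0 h, 1098 and 912 at 0.5 h and 765 and 830.2 at 1 h. They then stood at 685 and 542 TPM at 2 h, 506 and 514 at 4 h and 545 and 554 at 6 h. In uninduced libraries they summed to 396 and 300 TPM at 0 h, 569 and 411 at 0.5 h and 506 and 455 at 1 h. There they stood at 331 and 343 TPM at 2 h, 351 and 301 at 4 h and 233 and 282 at 6 h. In both arms the sums were thus higher at 0.5 h and 1 h than at 0 h. NEAT1 carried the decline from 0.5 to 2 h, at 585, 431 and 222 TPM in induced and 308, 278 and 138 TPM in uninduced cells as means at 0.5, 1 and 2 h. At those times MALAT1 averaged 404, 354 and 379 TPM in induced and 171, 194 and 189.9 TPM in uninduced cells. The part of nuclear RNA in that share was not tested.

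**Figure D4:**
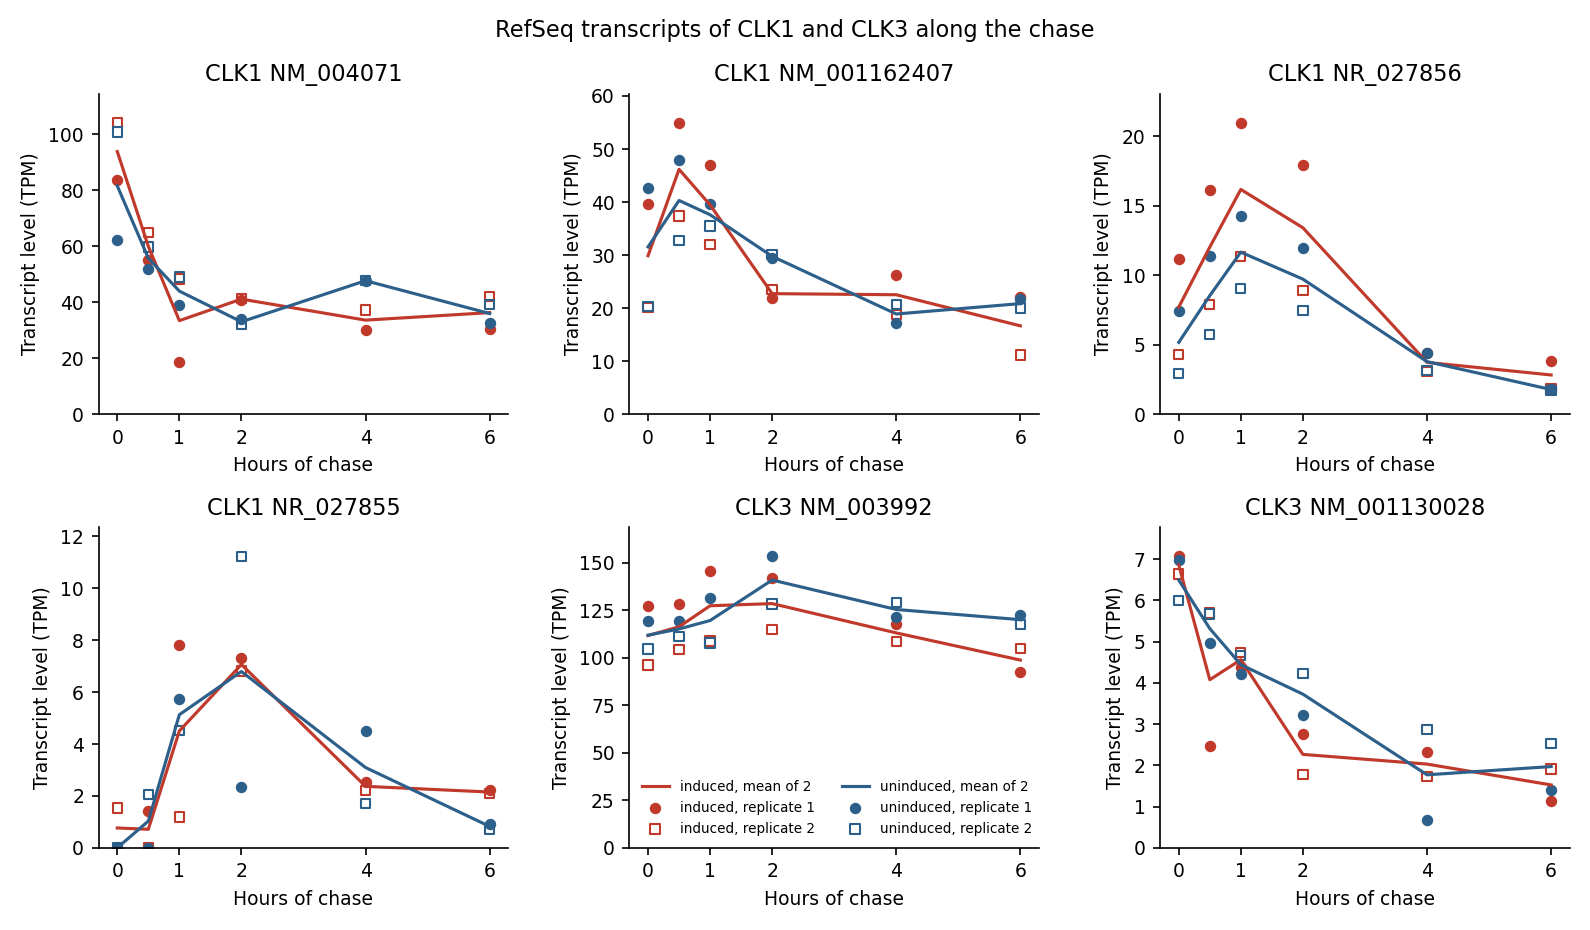
TPM of each RefSeq transcript of CLK1 and CLK3 (vertical axes, linear from 0, each panel with its own range) against hours of chase; points are libraries, filled for replicate 1 and open for replicate 2, and lines are means of 2 in induced (red) and uninduced (blue) cells. NM_004071 drops within 2 h while NR_027856 is highest at 1 h and NM_003992 stays between 92.8 and 154 TPM.

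CLK3 consisted almost wholly of NM_003992, which exceeded NM_001130028 by 14.5 to 182 times across libraries, with a median of 39.1. The minor form fell: NM_001130028 stood at 1.14 and 1.91 TPM by 6 h in induced cells, whose starting levels were 7.07 and 6.64 TPM, and at 1.41 and 2.53 TPM by 6 h in uninduced cells, whose starting levels were 6.98 and 6 TPM. Its slope was -0.24 per hour in induced and -0.25 in uninduced cells (limma adjusted p = 0.000800 and 0.000733), whereas NM_003992 had slopes of -0.036 and 0.015 that did not pass. Of the 6 transcripts of CLK1 and CLK3, 3 had a falling slope that passed in each arm, beside 19.1% of all transcripts in induced and 14.1% in uninduced cells. No slope difference between the arms passed for any of the 6 by limma (0 at an unadjusted p below 0.05), and 0.0322% of all transcripts passed. The RefSeq annotation places the antisense gene CLK3-AS1 over CLK3 and the pseudogene RN7SKP70 over CLK4. The strand used in counting is not given in the sources used here, so reads of such overlapping genes cannot be told apart.

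The share of each gene held by its main transcript was tested in single libraries. NM_003992 made up 98.4 ± 0.316% of CLK3 at 4 and 6 h and 95.3 ± 1.96% at 0 and 0.5 h in induced cells (SD, n = 4 each, two-sided exact permutation p = 0.0571, adjusted p = 0.114). In uninduced cells it made up 98.5 ± 0.788% late and 95.0 ± 0.704% early (SD, n = 4 each, exact permutation p = 0.0286, the smallest possible, adjusted p = 0.114 over 4 tests). The uninduced libraries did not overlap between early and late chase, but neither arm passed after adjustment. For CLK1, NM_004071 made up 58.4 ± 11.5% late and 61.1 ± 15.1% early in induced cells, and 62.7 ± 3.66% late and 60.7 ± 14.7% early in uninduced cells (SD, n = 4 each, exact permutation adjusted p = 0.8 in both). Libraries at 1 and 2 h did not enter these comparisons. There NM_004071 averaged 35.9 ± 22.8 and 48.9 ± 3.57% in induced cells (SD, n = 2 each). In uninduced cells it averaged 44.7 ± 7.41 and 41.7 ± 2.92%. These tests therefore cannot show whether the CLK1 share changed in mid-chase. Between the arms, with time kept as a stratum over 46656 arrangements, the shares differed by -1.57 percentage points for CLK1 and 0.207 for CLK3, induced minus uninduced (exact permutation p = 0.719 and 0.578).

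**Figure D5:**
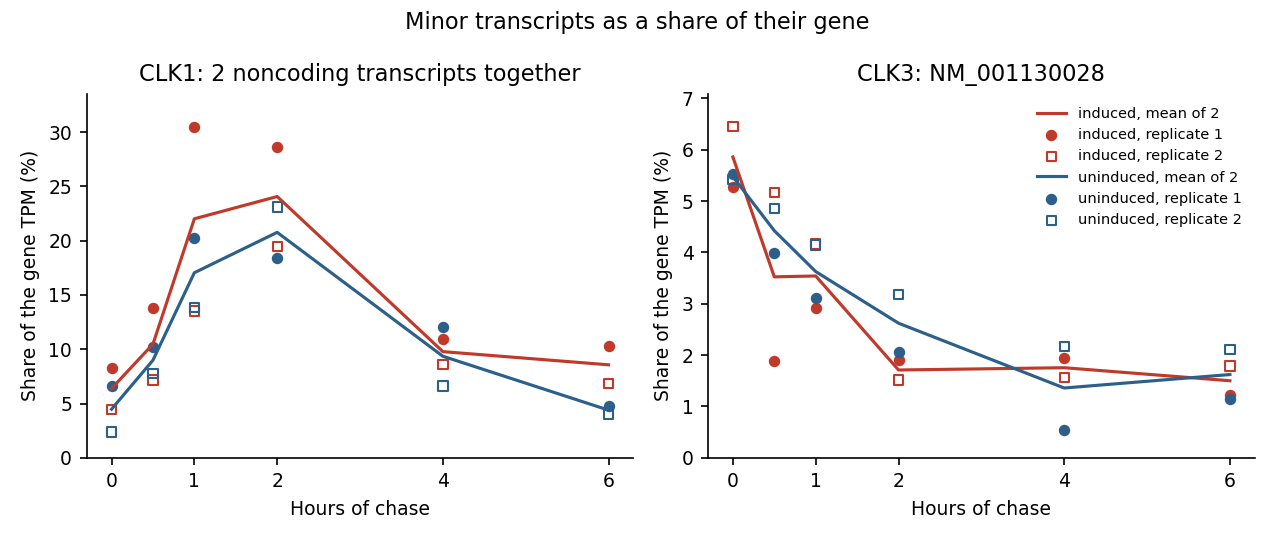
Share of CLK1 TPM held by its 2 noncoding transcripts together (left) and of CLK3 TPM held by NM_001130028 (right), in percent on vertical axes of different range, against hours of chase; points are libraries, filled for replicate 1 and open for replicate 2, and lines are means of 2 in induced (red) and uninduced (blue) cells. The mean noncoding share of CLK1 reaches 24.1% in induced and 20.8% in uninduced cells at 2 h.

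Most SR proteins, the substrates of the CLK kinases, rose as a share of the labelled RNA. Of the 14 SR proteins and TRA2 factors, 11 rose and 1 fell in induced cells and 12 rose and 1 fell in uninduced cells, by the limma slope test over all genes. Their median slopes were 0.19 per hour in induced and 0.20 in uninduced cells, beside 0.028 and 0.039 over all genes, of which 41.6% and 42.8% rose. The one that fell was SRSF12, with slopes of -0.12 and -0.092. SRSF5, the member with the smallest p for a difference between the arms, had slopes of 0.037 in induced and 0.11 in uninduced cells (difference -0.073, limma adjusted p = 0.317). Under the 3 other scalings 11 rose in induced cells and 11 or 12 in uninduced cells, and in induced cells 1 or 2 fell.

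The SR protein kinases and other genes of the SR phosphorylation cycle (SRPK1, SRPK2, SRPK3, PRPF4B, TNPO3, PPP1CA, PPP1CB, PPP1CC and PPP1R8) had 8 of 9 genes above the minimum level. Of these 8, 7 rose in induced and 8 in uninduced cells (limma slopes, median 0.20 and 0.18 per hour), against 41.6% and 42.8% of all genes, and 5 to 7 rose in uninduced cells under the other scalings. PPP1CA, a catalytic subunit of protein phosphatase 1, reached 204 ± 13.3 TPM by 6 h in induced cells, whose starting level was 104 ± 10.7 TPM, and 179 ± 2.47 TPM by 6 h in uninduced cells, whose starting level was 124 ± 6.07 TPM (SD, n = 2 each). The DYRK and HIPK kinases, relatives of the CLKs in the CMGC group, had 7 genes above the minimum, of which 2 rose and 1 fell in induced cells and 3 rose and 1 fell in uninduced cells. Over all genes 41.6% rose and 29% fell in induced cells and 42.8% rose and 22.3% fell in uninduced cells, so the counts of this list are near the background; 2 or 3 fell in each arm under the other scalings. The one that fell on TPM was DYRK3, a kinase that dissolves stress granules, at 29.5 ± 0.665 TPM by 6 h in induced cells, whose starting level was 76.7 ± 8.97 TPM, and 45.3 ± 0.573 TPM by 6 h in uninduced cells, whose starting level was 77.2 ± 1.06 TPM (SD, n = 2 each). Its slopes, -0.23 in induced and -0.13 in uninduced cells, differed without passing the test on TPM (limma adjusted p = 0.225).

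Messages known for regulated detained introns, the mode of control also known for CLK1, gave values in both directions. MAT2A, the methionine adenosyltransferase subunit, fell with slopes of -0.13 per hour in induced and -0.21 in uninduced cells, while OGT, the O-GlcNAc transferase, rose with slopes of 0.22 and 0.21. MGEA5, the O-GlcNAcase, had slopes of 0.050 and 0.052, which passed on TPM (limma adjusted p = 0.0368 and 0.0324) but were not called after the other scalings, where 1 of the 3 rose and 1 fell in each arm. None of the genes in these 4 lists had a slope difference between the arms that passed on TPM. Under quantile normalization 1 gene, DYRK3, did. Some levels differed between the arms on TPM by limma. Over the late libraries 1 gene was lower in induced cells in each of the 3 kinase and SR protein lists. In the detained-intron list 1 gene was higher. Averaged over all times, 1 gene was lower in each of those 3 lists. Higher were 2 of the SR proteins and TRA2 factors and 2 detained-intron genes. Of all genes, 16.2% and 25.7% passed in these comparisons. No listed gene passed at the start of the chase.

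The members were alike in profile to differing degrees over the 24 libraries, which all follow the same 6 times. Described by Pearson's r of log2(TPM + 1), CLK1 and CLK4 were closest at 0.826, and CLK2 and CLK4 followed at 0.725. In the middle were CLK1 and CLK2 at 0.618, CLK3 and CLK4 at 0.554 and CLK2 and CLK3 at 0.547. Only CLK1 and CLK3 were far apart, at 0.152. Among the 10384 genes that averaged 5 TPM or more, the profiles most like that of CLK1 were ZNF564, ZNF250 and EGR1, with r of 0.974, 0.973 and 0.972. For CLK4 they were HEXIM1, HOMEZ and ERCC6-PGBD3, at 0.940, 0.939 and 0.937. CLK2 was closest to BMS1P5, CES3 and TAF8, at 0.898, 0.892 and 0.885, and CLK3 to NOL12, GFOD2 and CCDC130, at 0.860, 0.849 and 0.837. A like profile did not mean a like size of change: EGR1, an immediate early transcription factor, had slopes of -1.04 per hour in induced and -0.98 in uninduced cells, against -0.19 and -0.15 for CLK1. Of the CLK pseudogenes looked for, CLK2P was the one in the table and never exceeded 0.22 TPM.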

How the data were processed

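Labelled cytoplasmic RNA from 24 libraries of 1 U2OS line (2 arms, 6 chase times, 2 libraries each) was quantified by the authors. Per the submitters' processing notes, the tools were RSEM 1.3.0, Bowtie2 and Trim Galore and the genome hg19. The authors deposited TPM per RefSeq transcript, which hold no read depth, so no counting interval can be given; the strand used is not given in the sources used here. TPM were summed per gene symbol. With R 4.3.3 and limma 3.58.1, log2(TPM + 1) of the 13416 genes (21749 transcripts) with a mean of at least 1 TPM was fitted in all libraries together, by arm and hours for slopes (20 residual degrees of freedom) and by the 12 group means for other contrasts (12), with eBayes trend and two-sided tests. p-values were adjusted by Benjamini-Hochberg over all features, at a threshold of 0.05. Errors of slopes are SE and intervals are 95%. Shares and ratios were tested by exact permutation over libraries in Python 3.11.15. Of the fits, that of the slope difference between the arms alone was tried on simulated data, with independent noise in each library. The pseudocount understates changes of low genes. Named genes were the 4 members and their transcripts, the 3 genes with the most similar profile to each, and, in lists, those with the smallest p for a difference between the arms or a direction of their own. Members and lists were chosen with earlier results of these data known. Alternatives covered pseudocounts of 0.1 and 5, filters, scalings, a replicate block, the variance trend, coding transcripts alone, a chase of 0 to 4 h and leaving out each library. Promoter windows came from RefSeq's GRCh38.p14 table, which matched all 4 members.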

Additional observations from a re-analysis of the deposited data

How the results depend on the processing

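For single CLK genes the falls of CLK1 in slope in both arms, its early fall in both arms, and the slope differences between arms, of which none was called, kept their direction and their side of the threshold under all alternatives run; the slope of CLK1 ranged from -0.26 to -0.18 per hour in induced and -0.23 to -0.14 in uninduced cells. TPM hold no depth, so what depth limits is unknown. The cause of the changes below was not tested, except where fewer times, genes or transcripts entered a fit by construction.

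With quantile normalization CLK2 had an uninduced slope of -0.11 (limma adjusted p = 0.00141) and CLK3 had slopes of -0.11 in induced and -0.073 in uninduced cells. The difference at 0 h was 0.0098 for CLK3, the difference over 4 and 6 h 0.0041 for CLK2, and the difference in late change 0.064 for CLK2. Early changes were -0.21 for CLK3 and -0.49 for CLK4 in induced cells, and -0.052 for CLK3 and -0.14 for CLK4 in uninduced cells; late changes of CLK3 were -0.44 in induced and -0.37 in uninduced cells. With median-of-ratios scaling the uninduced slope of CLK2 was -0.10, the slopes of CLK3 -0.071 in induced and -0.036 in uninduced cells, and the late changes of CLK3 -0.34 and -0.31. The difference at 0 h was -0.0076 for CLK2, the mean difference -0.031 for CLK1 and -0.13 for CLK3, and the difference in late change 0.076 for CLK2. Early changes were -0.053 for CLK3 and -0.44 for CLK4 in induced cells and -0.11 for CLK4 in uninduced cells. Without RMRP, MIR6723 and RPPH1 the uninduced slope of CLK2 was -0.10, the slopes of CLK3 -0.093 in induced and -0.033 in uninduced cells, and its late changes -0.52 and -0.36. The difference at 0 h was 0.031 for CLK3 and the mean difference 0.0056 for CLK4. Early changes were -0.0050 for CLK3 and -0.40 for CLK4 in induced cells and -0.064 for CLK4 in uninduced cells. With this scaling 44.7% of called slopes rose in induced and 51.8% in uninduced cells. With coding transcripts alone the late change of CLK1 in uninduced cells was -0.14 and its mean difference -0.035. Over 0 to 4 h the uninduced slope of CLK4 was -0.026.

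The replicate numbers were tried as a block. In 29 of 66 pairs of groups, libraries with the same number deviated together with a correlation over 0.1 (range -0.036 to 0.253), and all 12 groups correlated on average positively with their own number, which is a hint from the data and not the design. With the replicate block the uninduced slope of CLK2 was -0.065 (limma adjusted p = 0.00603), the induced slope of CLK3 -0.044 (adjusted p = 0.0455) and its induced late change -0.37 (adjusted p = 0.0172), all called. So were, among transcripts, the induced slope of NM_004071 (-0.16, limma adjusted p = 0.0429; 0.0424 without the block but with transcripts averaging 5 TPM or more), the early changes of NR_027856 (0.77 in induced and 0.86 in uninduced cells, adjusted p = 0.0472 and 0.0326), its mean difference between arms (0.35, adjusted p = 0.0363) and the induced late change of NM_003992 (-0.37, adjusted p = 0.0463). With the block 99 genes were called for a slope difference, 11 for a difference at 0 h and 179 for a difference in late change.

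Counts over all genes moved most for differences between the arms. Slope differences numbered 46, against 88 with a pseudocount of 0.1, 25 with 5, 30 with no filter, 84 with a mean of at least 5 TPM, 179 with quantile normalization, 328 without the 3 RNAs and 0 over 0 to 4 h. Differences in late change numbered 49, against 30 with a pseudocount of 5, 1 with median-of-ratios scaling, 207 without the 3 RNAs and 10 with no variance trend. Differences at 0 h numbered 4, against 7 with quantile normalization, 8 without the 3 RNAs, 2 with no variance trend and 7 with coding transcripts alone. Differences in early change numbered 0, against 2 with no filter.

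Leaving out each library in turn gave 8 to 164 slope differences (8 without induced replicate 1 at 6 h, 164 without induced replicate 2 at 0 h), 0 to 5 differences at 0 h, 1 to 79 differences in late change and 0 to 1 in early change. It gave 1807 to 3932 early changes in induced and 1796 to 3250 in uninduced cells, and 1440 to 2287 differences over 4 and 6 h. For CLK3 the induced slope ranged from -0.060 to -0.027, called without replicate 2 at 0 h, and the uninduced slope from -0.0027 to 0.015, below 0 without replicate 2 at 0 h. Its late change in induced cells ranged from -0.53 to -0.22, called in 5 of 24 cases, and that of CLK4 from -0.56 to -0.38. For CLK2 the early change ranged from -0.40 to 0.26 in induced and -0.43 to 0.079 in uninduced cells, and the late change in induced cells from -0.64 to 0.028. For CLK3 the early change in induced cells ranged from -0.045 to 0.33. Differences at 0 h ranged from -0.21 to 0.33 for CLK2, -0.20 to 0.18 for CLK3 and -0.025 to 0.21 for CLK4, mean differences from -0.0055 to 0.030 for CLK1 and -0.044 to 0.014 for CLK4, and the difference over 4 and 6 h from -0.079 to 0.067 for CLK2. Differences in early change ranged from -0.23 to 0.44 for CLK2 and -0.33 to 0.050 for CLK3, and in late change from -0.36 to 0.30 for CLK2 and -0.29 to 0.018 for CLK3. The CLK1 share ranged from -8.60 to 3.68 percentage points late minus early in induced and -2.74 to 8.76 in uninduced cells, and between arms from -4.26 to 1.12 for CLK1 and -0.067 to 0.480 for CLK3. Each called ratio between members lost its call in 4 of 8 cases, in induced cells when a 4 or 6 h library was left out and in uninduced cells when a 0 or 0.5 h library was (exact permutation adjusted p up to 0.103). The ratio calls shared 1 adjusted p and depended on one another, and libraries of the other arm were not counted. The cases are thus not separate measures of each ratio. Late minus early, log2 ratios ranged from -0.63 to -0.39 for CLK1 over CLK2 in induced cells, from -0.95 to -0.82 in induced and -0.87 to -0.72 in uninduced cells for CLK1 over CLK3, from -0.45 to -0.31 and -0.49 to -0.37 for CLK1 over CLK4, from 0.48 to 0.56 and 0.30 to 0.45 for CLK3 over CLK4, and from -0.047 to 0.13 for CLK2 over CLK4 in uninduced cells.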
